A study of Mus musculus with 6 samples.

Results

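The homeostatic microglia genes are 9 genes that resident microglia of the mouse central nervous system transcribe in the unchallenged state, namely Csf1r, Cx3cr1, P2ry12, Tmem119, Aif1, Trem2, Tyrobp, Siglech and Fcrls. They were found by symbol in a table of read counts for 24062 genes, and all 9 had a row and enough counts to be tested. RNA sequencing was done on whole retinae of C57BL/6 mice (C57BL/6N in the methods of the study) at postnatal day 21 (P21), 3 from each of 2 genotypes. The first genotype was Chx10-Cre Rb1/p107, the double knockout (DKO), with floxed Rb1 and a germline p107 null. The second was Chx10-Cre Rb1/p107/Hells, the triple knockout (TKO), which carried floxed Hells in addition. Both groups therefore share the Cre driver, the floxed Rb1 and the p107 null. The comparison asks what the added loss of Hells, a chromatin remodeling helicase, does to transcript levels in retinae that develop retinoblastoma. Chx10-Cre acts in a mosaic pattern in retinal progenitor cells, so each retina also holds cells without recombination, and microglia come from yolk sac precursors outside that lineage.

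Microglia are the resident macrophages of the retina. They live in the plexiform layers, take up debris and prune synapses, and depend on signaling through the Csf1r receptor. Under quiet conditions they keep a set of surface receptors by which they read their surroundings, among them receptors for fractalkine, extracellular nucleotides and lipids, and a number of these receptors signal through the adaptor Tyrobp. Several of the 9 genes, Csf1r, Aif1, Tyrobp and Trem2 among them, are also transcribed by other macrophages, whereas P2ry12, Tmem119, Siglech and Fcrls are more restricted to microglia.

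The 6 libraries held 10343907 to 14203098 counts. Hells, the gene deleted in the TKO, was at 60.8, 68.4 and 83.4 normalized counts in the TKO and at 678, 523 and 395 in the DKO, so its levels followed the labels. Here and below the values of a group stand in the order of its replicates 1, 2 and 3. Values called normalized counts are read counts scaled for library size and composition by the trimmed mean of M values (TMM). Rb1 was at 814, 746 and 682 in the TKO and at 617, 583 and 572 in the DKO. Its log2 fold change (TKO over DKO) was 0.34 (edgeR adjusted p = 0.0388). Rbl1, the gene of p107, was low in both groups and overlapped (edgeR adjusted p = 0.839). The share of recombined cells in each retina was not tested. The retinae also differed in marker levels of other cells. The summed level of 10 rod genes was 358885 to 715796 in the TKO and 121469 to 230950 in the DKO. That of 8 cell division genes was 451 to 1890 against 4661 to 10055. TKO replicate 2 stood apart in 8 lens genes, whose sum was 3554 there, 534 and 634 in the other TKO retinae and 83.2 to 92.2 in the DKO. Xist was high in TKO replicates 2 and 3 and in DKO replicate 3 (12995 to 14151) and low in the other 3 retinae (2.63 to 8.03). The study used both sexes, the labels do not give the sex of each retina, and sex was not part of the fit.

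Of the 9 homeostatic genes, 4 were lower in TKO than in DKO retinae and none was higher at an adjusted p of at most 0.05 (edgeR quasi-likelihood test, Benjamini-Hochberg over 16904 genes). The genes that fell were Fcrls, Csf1r, Cx3cr1 and Aif1. When 1 retina was dropped, the number that fell was 1 (TKO replicate 2, DKO replicate 1 or DKO replicate 2 dropped), 2 (TKO replicate 1), 5 (DKO replicate 3) or 6 (TKO replicate 3). In the same order, the lower genes among all genes numbered 404, 499, 433, 766, 1715 and 1973, against 1556 with all 6 retinae. Across all genes tested with all 6 retinae, 9.2% were lower and 7.35% higher by the same rule. With the edgeR p, the 4 genes also met the further cutoffs of the study, a 2-fold change and a mean of at least 10 normalized counts, as did 4.38% of all genes in the lower direction. With p-values from DESeq2, 6 of the 9 met them. Of all 16904 genes, in either direction, 1157 met them with DESeq2 and 1074 with edgeR. All 3 TKO retinae lay below all 3 DKO retinae for 5 of the 9 genes, against 20.6% of all genes, and above them for 1 gene, Siglech, against 18% of all genes. The median log2 fold change (TKO over DKO) was -1.08 over the 9 genes and -0.01 over all genes tested. In RNA of whole retinae, fewer cells of a type and less RNA per cell cannot be told apart.

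**Figure D1:**
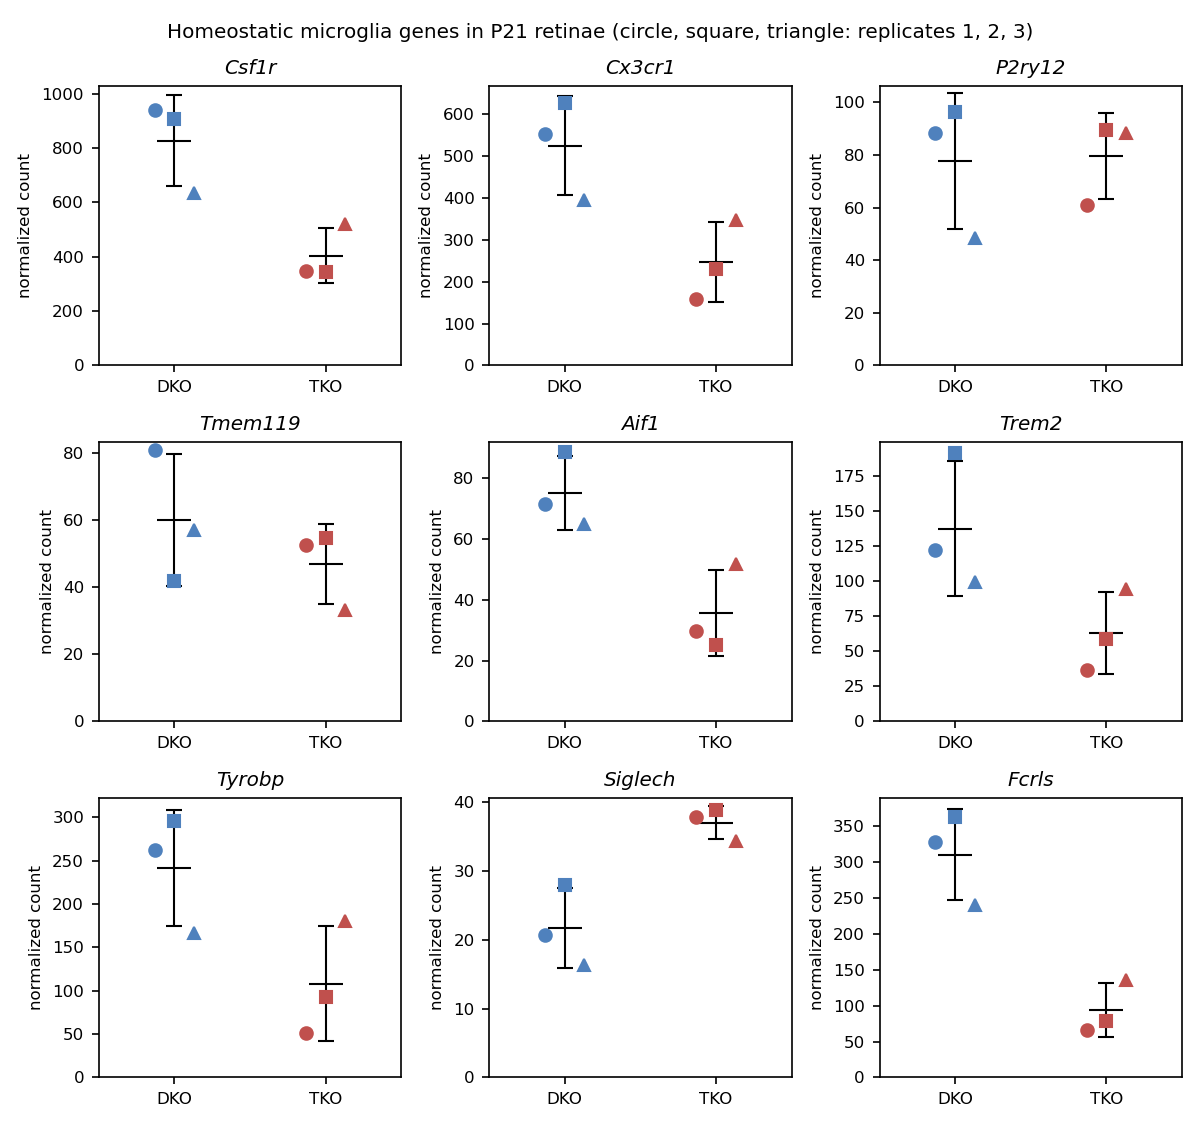
Normalized counts of the 9 genes in each retina (TKO red, DKO blue, vertical axes from 0; circle, square and triangle, replicates 1, 2 and 3), with bars at the mean and error bars of 1 SD, n = 3 each. Fcrls, Csf1r, Cx3cr1, Aif1 and Trem2 show no overlap with the TKO lower, Siglech shows none with the TKO higher, and Tyrobp, P2ry12 and Tmem119 overlap.

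Csf1r encodes the receptor for colony stimulating factor 1 and interleukin 34, on which microglial survival depends. The gene lies at chr18:61100598-61132149 on the plus strand (GRCm38, GENCODE vM21, as for the positions that follow). It was at 347, 344 and 522 normalized counts in the TKO retinae and at 940, 906 and 635 in the DKO retinae. The highest TKO retina stayed below the lowest DKO retina. The mean was 404 ± 101 (SD, n = 3) in the TKO and 827 ± 167 (SD, n = 3) in the DKO, a log2 fold change of -1.03 (SE 0.20, 95% interval -1.49 to -0.57, edgeR adjusted p = 0.0135). Leaving out TKO replicate 2 gave an adjusted p of 0.0638, leaving out DKO replicate 1 gave 0.0565 and leaving out DKO replicate 2 gave 0.0603. Exons of Csf1r share 873 bases with Hmgxb3 on the opposite strand, which had 592 to 947 counts per library, and the strand setting used in counting is not given in the sources used here.

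Cx3cr1 encodes the receptor for fractalkine, a chemokine that neurons carry on their surface, and lies at chr9:119901616-120069879 (minus strand). It had 159, 232 and 349 normalized counts in the TKO retinae and 552, 627 and 395 in the DKO retinae, again without overlap. The log2 fold change was -1.09 (SE 0.27, 95% interval -1.72 to -0.46, edgeR adjusted p = 0.0311). TKO replicate 3 and DKO replicate 3 were the closest pair. Leaving out TKO replicate 1 or 2 raised the adjusted p to 0.0694 or 0.112, and leaving out DKO replicate 1 or 2 raised it to 0.0962 or 0.115. With all 6 retinae and a robust estimate of the dispersion it was 0.0556. Its gene body spans several others, but none with a row in the table shares exon sequence with it.

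Fcrls, an Fc receptor-like scavenger receptor, fell most among the 9 genes and lies at chr3:87250758-87263738 (minus strand). It had 66.5, 78.9 and 136 normalized counts in the TKO retinae against 328, 362 and 240 in the DKO retinae. Every DKO value was above every TKO value. The level was 3.32-fold higher in the DKO, a log2 fold change of -1.73 (SE 0.27, 95% interval -2.36 to -1.10, edgeR adjusted p = 0.00821), and the adjusted p stayed between 0.0018 and 0.0444 when any 1 retina was left out.

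Trem2, a receptor for lipids and lipoproteins, and Tyrobp, the adaptor that carries its signal, had estimates of like size that did not pass the test. They lie at chr17:48346401-48354147 and chr7:30413760-30417585, both on the plus strand. Trem2 had 36.7, 58.9 and 94.5 normalized counts in the TKO and 122, 192 and 99.3 in the DKO. The groups did not overlap, although TKO replicate 3 and DKO replicate 3 lay close together. The log2 fold change was -1.12 (SE 0.36, 95% interval -1.95 to -0.29, edgeR adjusted p = 0.0687). Tyrobp had 51.6, 92.6 and 180 normalized counts in the TKO and 263, 296 and 167 in the DKO. TKO replicate 3 was above DKO replicate 3, so these groups overlapped. Its log2 fold change was -1.16 (SE 0.40, 95% interval -2.09 to -0.24, edgeR adjusted p = 0.0840). Without TKO replicate 3 the adjusted p was 0.0205 for Trem2 and 0.0095 for Tyrobp, and without DKO replicate 3 that of Trem2 was 0.0438. Under DESeq2, where 11.1% of genes were lower, both passed (adjusted p = 0.0142 for Trem2 and 0.0136 for Tyrobp), which made 6 of the 9.

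Siglech, a sialic acid binding receptor that also signals through Tyrobp, was the 1 gene whose values were higher in every TKO retina, and lies at chr7:55768178-55778925 (plus strand). It had 37.8, 38.9 and 34.4 normalized counts in the TKO and 20.7, 28.0 and 16.4 in the DKO, from only 19 to 37 reads per library. The TKO values were close together, with a mean of 37.0 ± 2.39 (SD, n = 3) against 21.7 ± 5.87 (SD, n = 3). The log2 fold change of 0.77 (SE 0.28, 95% interval 0.12 to 1.42) did not pass the test (edgeR adjusted p = 0.100), and it lay between 0.60 and 1.00 when any 1 retina was left out.

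P2ry12, the receptor for adenosine diphosphate by which microglial processes find injured cells, had nearly equal means in the groups and lies at chr3:59216272-59262871 (minus strand). It had 60.8, 89.5 and 88.4 normalized counts in the TKO and 88.5, 96.3 and 48.4 in the DKO. Both groups spanned much the same range. The log2 fold change was 0.04 with an SE of 0.29 (edgeR adjusted p = 0.945). Its 95% interval, -0.63 to 0.70, overlaps the intervals of Csf1r, Cx3cr1 and Aif1 but not that of Fcrls. The sign turned negative when DKO replicate 3 (-0.22), TKO replicate 2 (-0.06) or TKO replicate 3 (-0.04) was left out, and under scaling by total counts (-0.12). P2ry12 lies within Med12l, a gene on the opposite strand with 484 to 829 counts per library that shares 9 exon bases with it.

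Aif1, which encodes the actin-binding protein Iba1 used to stain microglia and lies at chr17:35170991-35176068 (minus strand), had 29.8, 25.3 and 51.5 normalized counts in the TKO and 71.5, 88.4 and 64.8 in the DKO. The groups did not overlap. The log2 fold change was -1.08 (SE 0.30, 95% interval -1.77 to -0.40, edgeR adjusted p = 0.0430). Left out in turn, TKO replicates 1 and 2 and DKO replicates 1 and 2 each brought the adjusted p above 0.05, to 0.124, 0.136, 0.104 and 0.153. Tmem119, a membrane protein used as a microglial marker and encoded at chr5:113793729-113800516 (minus strand), had 52.8, 54.7 and 33.1 normalized counts in the TKO and 80.9, 42.0 and 57.0 in the DKO. These ranges overlapped. Its log2 fold change was -0.35 (SE 0.31, 95% interval -1.06 to 0.36, edgeR adjusted p = 0.470).

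**Figure D2:**
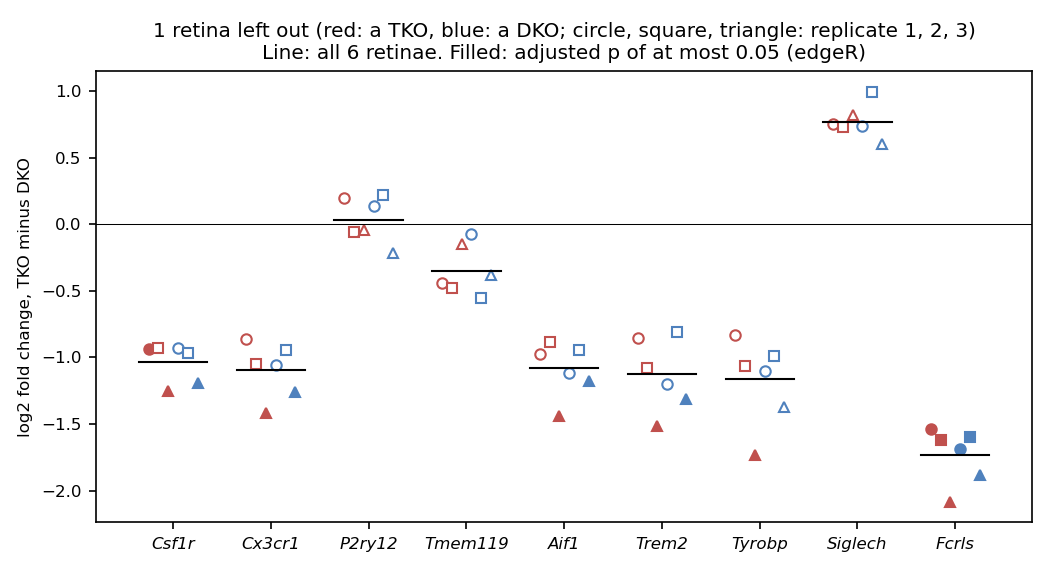
Log2 fold change (TKO over DKO, vertical axis) of each gene with 1 retina left out in turn (red, a TKO retina; blue, a DKO retina; circle, square and triangle, replicates 1, 2 and 3), with a line at the value from all 6 retinae and filled symbols where the edgeR adjusted p was at most 0.05. All symbols of Fcrls are filled, from -2.09 to -1.54, none is filled for P2ry12, Tmem119 or Siglech, and leaving out TKO replicate 3 gave the lowest value for each of the 6 genes with estimates at or below -1.03.

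Promoters are shown for the gene that fell most, Fcrls, for P2ry12, whose means were nearly equal, and for Siglech, whose values were higher in the TKO, and these 3 were chosen after the values were seen. They are the 250 bases before the annotated start of transcription in RefSeq for build GRCm38.p6, at chr3:87263525-87263774 (minus strand), chr3:59262986-59263235 (minus strand) and chr7:55767934-55768183 (plus strand), each written 5′ to 3′ on the strand of the gene. Capitals mark GAGGAA or GGAAGT, letters of the kind that the myeloid factor PU.1 binds, or their reverse complements.
Fcrls: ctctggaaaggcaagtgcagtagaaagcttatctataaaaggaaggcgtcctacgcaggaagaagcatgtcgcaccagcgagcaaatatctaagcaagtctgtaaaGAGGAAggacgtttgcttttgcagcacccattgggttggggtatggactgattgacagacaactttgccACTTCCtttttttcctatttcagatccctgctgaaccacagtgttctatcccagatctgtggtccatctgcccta
P2ry12: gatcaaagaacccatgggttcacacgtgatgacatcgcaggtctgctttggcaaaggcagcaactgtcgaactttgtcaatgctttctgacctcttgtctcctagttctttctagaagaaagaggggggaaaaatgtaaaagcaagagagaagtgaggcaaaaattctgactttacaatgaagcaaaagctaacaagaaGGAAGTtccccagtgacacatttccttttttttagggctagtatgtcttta
Siglech: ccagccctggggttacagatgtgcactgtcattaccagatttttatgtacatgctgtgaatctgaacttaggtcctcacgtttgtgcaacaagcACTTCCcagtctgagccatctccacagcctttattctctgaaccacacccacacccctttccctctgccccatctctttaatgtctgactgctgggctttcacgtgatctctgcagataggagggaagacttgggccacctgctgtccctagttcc

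RefSeq windows from 250 bases before to 50 after the start were found for 6 of the 9 genes. On either strand, GAGGAA stood in 4 of the 6 (Aif1, Fcrls, Siglech and Trem2) and in 28.3% of all 32851 windows, and GGAAGT in 3 (Fcrls, P2ry12 and Siglech) and in 23.8% of all windows. The GAGGAA letters of Siglech lie across its start and are not in the stretch printed. GAGGAA and GGAAGT can overlap, and their joined form GAGGAAGT was in none of the 6 and in 3.2% of all windows. The interferon response letters, TTTC, any 2 bases and TTTC, stood only in that of Aif1 among the 6 and in 3.44% of all windows. Fcrls and Siglech both held GAGGAA and GGAAGT in their windows. The part of these letters in the fold changes was not tested.

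The summed level of the 9 genes was 843, 1015 and 1489 normalized counts in the TKO and 2468, 2638 and 1722 in the DKO. The groups did not overlap, and the mean was 2.04-fold higher in the DKO (1115 ± 334 against 2276 ± 487, SD, n = 3 each). The exact two-sided permutation p was 0.1, the smallest that 3 against 3 retinae allow. Csf1r and Cx3cr1 make up most of this sum. In the mean standardized level, which weights the 9 genes equally, TKO replicate 3 (-0.04) stood above DKO replicate 3 (-0.11), so the groups overlapped. Replicate 3 of each genotype was the one nearest to the other group. TKO replicate 3 was the highest TKO retina for 6 of the 9 genes, and DKO replicate 3 was the lowest DKO retina for 8.

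The order of the retinae by this sum ran alongside their order by marker lists of other cells. Cell division genes summed to 451, 844 and 1890 in the TKO and 10055, 7327 and 4661 in the DKO, and rod genes to 715796, 608565 and 358885 against 126944, 121469 and 230950. In both lists replicate 3 was again the TKO retina nearest to the DKO and the DKO retina nearest to the TKO. The part of cell content in the levels of the microglia genes was not tested. The lens genes, high in TKO replicate 2, did not follow this order. Without that retina the log2 fold changes of the 4 genes that fell were between -1.62 for Fcrls and -0.88 for Aif1. Of the 4, only Fcrls then passed (edgeR adjusted p = 0.0444). TKO replicates 1 and 3, which remain, also held more lens RNA (sums of 634 and 534) than the DKO (83.2 to 92.2). The part of lens content in the microglia values was not tested.

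**Figure D3:**
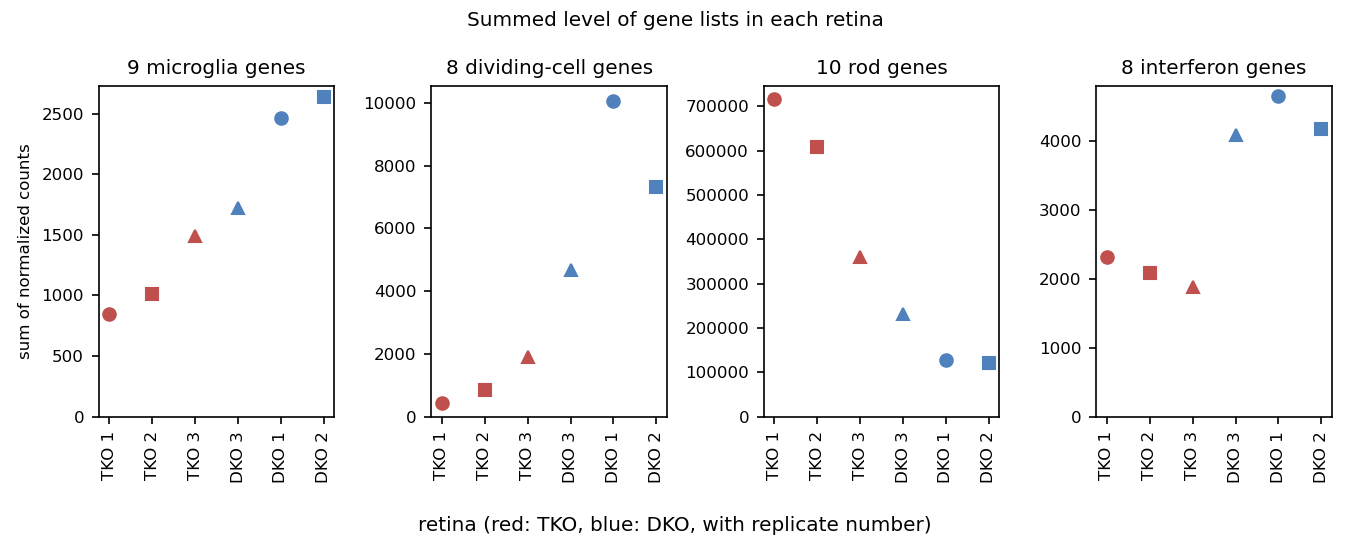
Sum of normalized counts in each retina (TKO red, DKO blue) for the 9 microglia genes and for lists of cell division, rod and interferon-response genes, each on its own axis. The microglia sum runs from 843 in TKO replicate 1 to 2638 in DKO replicate 2, and replicate 3 of each genotype lies nearest to the other genotype in the first 3 lists.

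Ratios within a library do not depend on the scaling between libraries, so each gene was also expressed as a percent of the Csf1r count of the same retina. P2ry12 was 17.5, 26.0 and 16.9% of Csf1r in the TKO and 9.41, 10.6 and 7.62% in the DKO. Siglech was 10.9, 11.3 and 6.59% against 2.20, 3.09 and 2.59%. Fcrls was 19.1, 22.9 and 26.1% against 34.9, 40.0 and 37.8%. For these 3 genes the groups did not overlap, with mean log2 differences of 1.11 for P2ry12, 1.84 for Siglech and -0.73 for Fcrls. Each reached an exact permutation p of 0.1, the smallest possible, and 0.267 after Benjamini-Hochberg adjustment over 8 ratios. The other 5 overlapped, and Cx3cr1 (-0.10), Aif1 (-0.09), Trem2 (-0.13) and Tyrobp (-0.26) lay closer to 0 than Tmem119 (0.70). Set against the sum of the other 8 genes, P2ry12 (1.18), Siglech (1.89) and Fcrls (-0.81) kept their signs and again did not overlap. Csf1r and Cx3cr1 make up most of the summed level, so this ratio is not independent of that to Csf1r. With 3 retinae in each group no ratio could pass at 0.05.

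**Figure D4:**
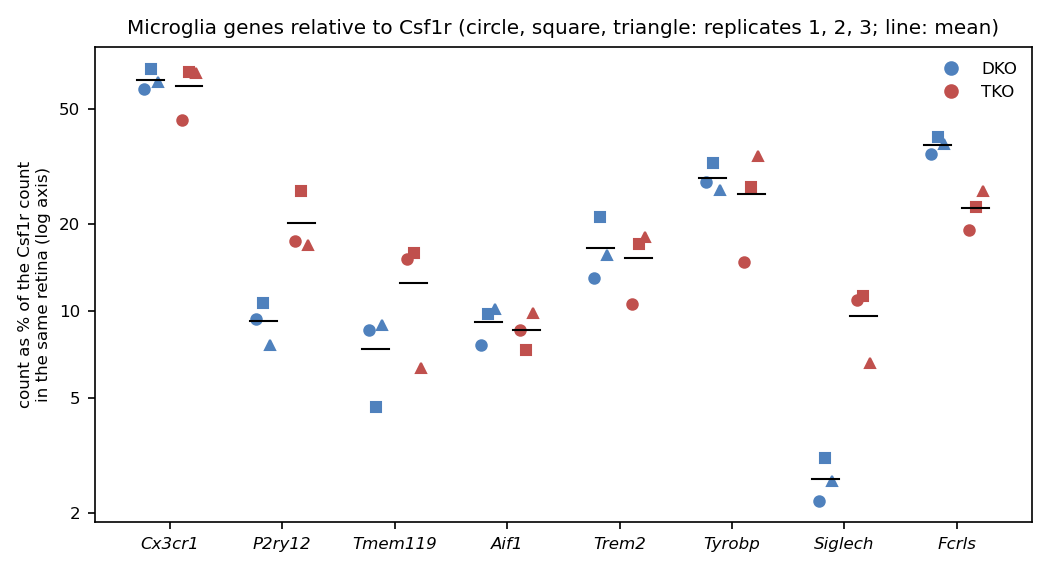
Count of each gene as a percent of the Csf1r count in the same retina (log axis), TKO red and DKO blue, with a line at the mean. The TKO retinae lie above the DKO retinae for P2ry12 and Siglech and below them for Fcrls, and the other 5 genes overlap.

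Compared per length, as normalized RPKM over all annotated exon bases of a gene, Tyrobp had the highest level in the DKO (28.6 ± 7.96, SD, n = 3), ahead of Csf1r (11.3 ± 2.29), Fcrls (10.5 ± 2.14) and Cx3cr1 (9.21 ± 2.07), whose spreads overlapped one another. Aif1 (3.87 ± 0.629), P2ry12 (2.41 ± 0.799), Trem2 (2.20 ± 0.769) and Tmem119 (2.05 ± 0.670) followed, the last 3 within their spreads. Siglech was lowest at 0.507 ± 0.137. In the TKO the order was Tyrobp (12.8 ± 7.80), Csf1r (5.54 ± 1.39), Cx3cr1 (4.33 ± 1.67) and Fcrls (3.18 ± 1.26), and then P2ry12 (2.47 ± 0.505), which there stood above Aif1 (1.83 ± 0.725). Tmem119 (1.60 ± 0.408), Trem2 (1.01 ± 0.466) and Siglech (0.866 ± 0.0559) came last. Each neighboring pair in this TKO order lay within its spreads.

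Other genes of the same cells were taken as lists. Of 15 further microglia genes, 6 were lower at the adjusted p of 0.05 and none higher, with a median log2 fold change of -0.95, and the 6 were C1qa, C1qb, C1qc, Ctss, Ly86 and Hpgds. The complement genes C1qa (-1.29, edgeR adjusted p = 0.0125), C1qb (-1.17, 0.0202) and C1qc (-1.28, 0.0167) and the lysosomal protease Ctss (-0.95, 0.0252) fell. Of 14 genes transcribed across myeloid cells, 10 fell and none rose, with a median of -1.23. Among them the lysosomal membrane gene Laptm5 (-1.34, edgeR adjusted p = 0.0137), the Fc receptor Fcgr1 (-1.71, 0.00691) and the actin-binding genes Lcp1 (-1.58, 0.00691) and Coro1a (-0.59, 0.0173) fell. Fcgr3, another Fc receptor, had an estimate of -1.22 that did not pass (0.0583).

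**Figure D5:**
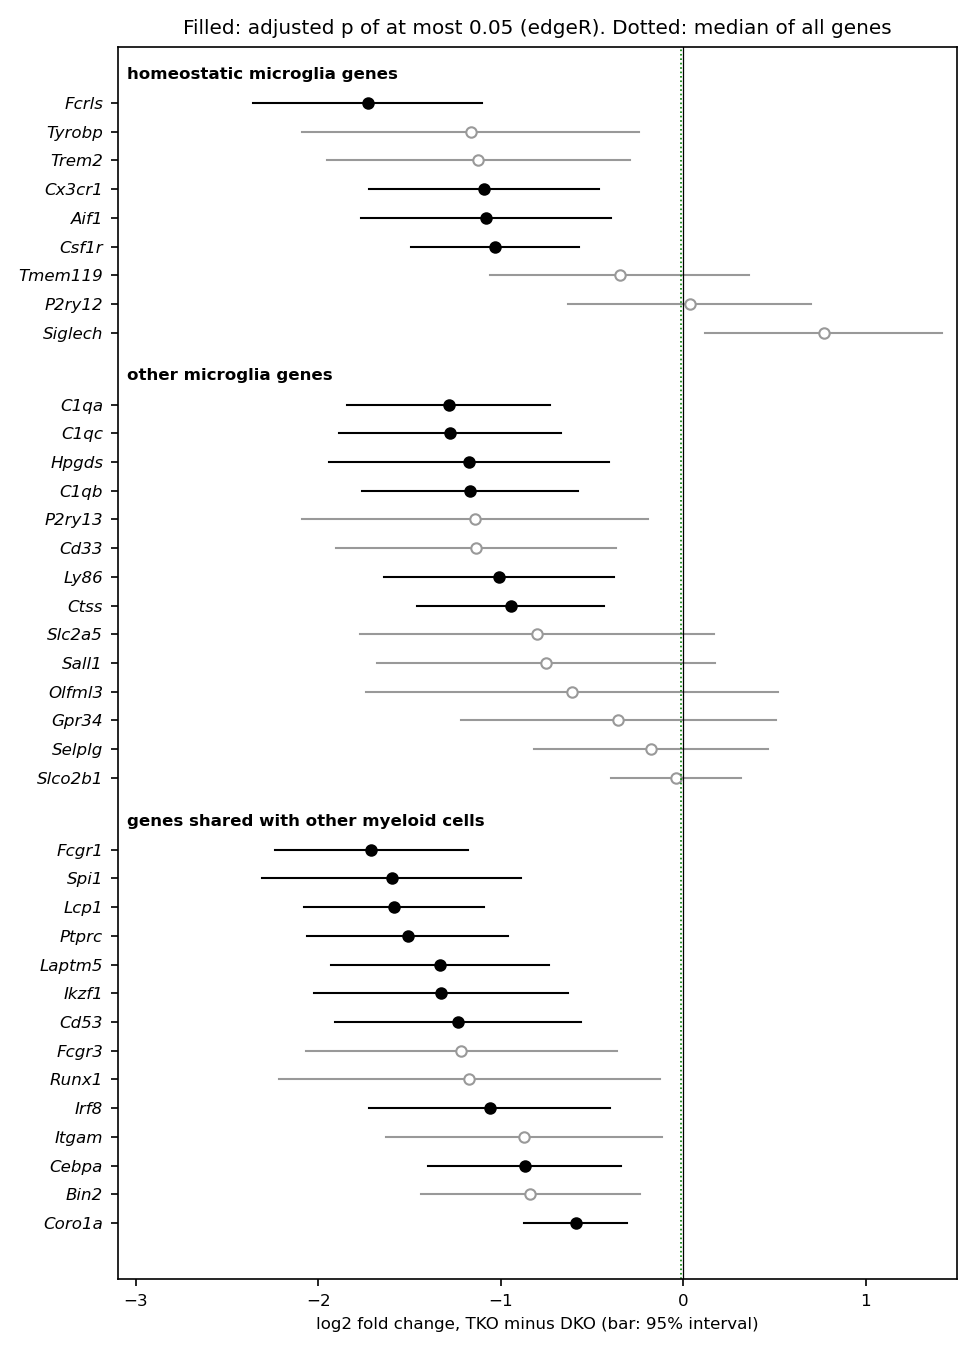
Log2 fold change (TKO over DKO) with its 95% interval from edgeR, n = 3 each, for the 9 homeostatic genes, 14 of the 15 other microglia genes and 14 genes shared with other myeloid cells, filled where the adjusted p was at most 0.05 and with a dotted line at the median of all genes. The 9 genes run from -1.73 for Fcrls to 0.77 for Siglech, and the estimates shown for the other 2 lists all lie below 0.

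For ligands of the receptors above, 4 of 7 genes fell and none rose. Csf1, a ligand of Csf1r, had 138, 179 and 254 normalized counts in the TKO and 417, 360 and 488 in the DKO (log2 fold change -1.15, edgeR adjusted p = 0.0127). Il34, which encodes the other Csf1r ligand, had 181, 216 and 248 in the TKO and 220, 229 and 248 in the DKO. It did not pass (-0.11, edgeR adjusted p = 0.619). Cx3cl1, the fractalkine bound by Cx3cr1, was at 2232 to 2373 against 2019 to 2321 (0.07, 95% interval -0.12 to 0.26, adjusted p = 0.580). Apoe, a lipoprotein that Trem2 binds, fell (-0.90, 0.0466), and Tgfb1, a growth factor that maintains the homeostatic program, fell from low counts (-1.27, 0.0110). Clu, another lipoprotein, did not pass (0.06, 0.889). In TGF-beta signaling 1 of 10 genes was lower, a share near the 9.2% of all genes. It was the receptor Tgfbr2 (-0.80, edgeR adjusted p = 0.0346), while Smad2, Smad3, Smad4 and Itgav had estimates between -0.39 and 0.05 that did not pass.

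Among 14 genes of signaling through Tyrobp-type adaptors, 6 fell and none rose, with a median of -0.93. They included the kinase Lyn (log2 fold change -1.24, edgeR adjusted p = 0.0291), the phosphatase Ptpn6 (-1.16, 0.0311), the exchange factor Vav1 (-1.21, 0.0214) and the adaptor Pik3ap1 (-1.16, 0.0283). Inpp5d, a phosphatase that limits this signaling, did not pass (-0.52, 0.0794). Of the receptors related to Trem2, Treml2 fell, with 4.21 to 5.73 normalized counts in the TKO and 17.9 to 20.7 in the DKO (-1.94, edgeR adjusted p = 0.0122). Treml1 (-1.50, adjusted p = 0.334) and Treml4 (0.46, adjusted p = 0.624) did not pass. Of the receptors related to P2ry12, 4 were tested and none passed. P2ry13, which lies beside P2ry12 in the genome, had an estimate of -1.14 (edgeR adjusted p = 0.0958), P2ry6 of -1.39 (0.0551) and P2ry1 of -0.46 (0.0758).

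Markers of other cells that could carry the shared genes were listed beside them. Of 20 genes linked to activated microglia, 10 fell and none rose, with a median log2 fold change of -0.93. Of these 10, 6 also met the 2-fold and mean count cutoffs, beside 4.38% of all genes. Fabp5 (log2 fold change -0.88, edgeR adjusted p = 0.00554) and Ctsz (-0.69, 0.00702) were first by p. Ctsd, Ctsb and Cd9 at -0.37, -0.05 and -0.09 did not pass. Of 10 markers of border macrophages 2 fell, Ms4a7 (2.29, 3.16 and 14.7 normalized counts against 23.5, 66.5 and 69.1, edgeR adjusted p = 0.0203) and Stab1 (log2 fold change -1.59, 0.00788). The median log2 fold change of the 10 was -1.48. All TKO retinae lay below all DKO retinae for 6 of the 10 and above them for 1, against 20.6% and 18% of all genes. The 10 markers summed to 417 to 578 in the TKO and 796 to 811 in the DKO. Mrc1 had 1.15, 10.5 and 34.4 against 78.1, 54.3 and 86.3 normalized counts (edgeR adjusted p = 0.0533). The log2 fold change of Lyve1 was 0.24 (adjusted p = 0.202). Of 9 monocyte and neutrophil markers 3 could be tested and none passed, their sum was 1.05 to 2.29 in the TKO and 8.47 to 52.7 in the DKO, and Mpo and Elane were at 0 in all 6 retinae. Ccr2 had 13 and 38 counts in DKO replicates 2 and 3 and at most 1 in each other library (adjusted p = 0.0774), and Plac8 and S100a9 had at most 7 counts in any library. Of 12 lymphocyte markers 6 had enough counts to be tested. Of these Cd4 fell (edgeR adjusted p = 0.0416), the other 5 did not pass, and of those not tested Cd3e was at 0 in all 6 retinae. The part of these cells in the fall of the shared genes was not tested.

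Endothelial, rod, Müller glia and interferon-response lists were taken in the same way. Of 8 endothelial genes 1 was higher, Pecam1 (log2 fold change 0.87, edgeR adjusted p = 0.0336), beside 7.35% of all genes, while Kdr (-0.21), Flt1 (0.23) and Esam (0.35) did not pass. All 10 rod genes rose, with a median of 1.77, 7 of 8 interferon-response genes fell, with a median of -1.82, and 3 of 8 Müller glia genes rose and 1 fell. The interferon list summed to 2316, 2087 and 1884 in the TKO and 4667, 4187 and 4090 in the DKO. It was lower in the TKO, as the microglia sum was, but within the TKO its order was the opposite of that of the microglia sum. Its part in the microglia values was not tested.

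The 9 genes differed in how closely each followed the rest across the 6 retinae. The correlation of each gene's log2 CPM with the mean of the other 8 was 0.965 for Cx3cr1, 0.948 for Tyrobp, 0.932 for Csf1r, 0.931 for Trem2, 0.906 for Fcrls and 0.835 for Aif1. It was 0.367 for P2ry12, -0.05 for Tmem119 and -0.62 for Siglech. After subtraction of each group mean the correlation was 0.886 for P2ry12, beside 0.887 for Csf1r and 0.894 for Fcrls, and 0.411 for Siglech and -0.55 for Tmem119. These are descriptions over 6 retinae of 2 genotypes, and the retinae differed in depth and in marker levels of other cells. Of 14967 genes with a mean of at least 10 normalized counts, 454 had a correlation of at least 0.95 with the mean standardized level of the 9, and the closest were Gnal (0.999), Dlx1as (0.998), Zfp618 (0.997), Aldh5a1 (0.996) and Fxyd6 (0.995). After subtraction of each group mean the closest were 1500015O10Rik (0.999), Sox4, Cdca8, Dnajc9 and Cst7 (0.998 each).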

How the data were processed

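RNA was sequenced from 3 TKO and 3 DKO whole retinae with a stranded mRNA kit. The deposited values are read counts per gene symbol made by the authors. The submitters' processing notes name TopHat2, featureCounts and DESeq2 with builds mm10 and GRCm38, whereas the methods of the study name STAR and HTSeq, and the strand setting of counting is not given in the sources used here. Libraries held 10343907 to 14203098 counts.

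Groups came from the labels. Genes with a count sum of at least 10 (16904 of 24062) were scaled by TMM and fitted over all 6 retinae with the quasi-likelihood test of edgeR 4.0.16 in R 4.3.3, with Benjamini-Hochberg adjustment over all genes tested. Each standard error is the size of the log2 fold change over the root of its F statistic. The stricter criteria took the cutoffs of the study, with the edgeR p in place of that of DESeq2: an adjusted p up to 0.05, a change of 1 or more on the log2 scale in either direction and a DESeq2-normalized mean count of 10 or more. Summed levels and ratios had exact two-sided permutation tests. The fit was tested on simulated data. Exon lengths and overlaps came from GENCODE vM21 (GRCm38), which held 22750 of the symbols.

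The members and lists were chosen with earlier results of these data known. Named genes were all 9 members, and of each other list the 3 with the largest mean and the 2 with the smallest p. As exceptions, the rod, cell division, Müller glia, interferon and lens lists are given by counts, sums or medians alone. Of the lymphocyte list only Cd4 and Cd3e are named. A few further genes (Mpo, Elane, Cd3e, Ly86, Hpgds, Il34) were named after their values were seen. Alternatives were DESeq2 1.42.0, its size factors, upper quartile and total count scaling, 2 other filters, robust dispersion, a stricter threshold, a replicate block and leaving out each retina. The study counts 3 retinae of each genotype, and the sources used here do not state whether each came from its own animal or litter, so p-values may measure only the spread between these samples. The values of some listed genes are not reported here, although the counts, sums and medians of their lists include them. Other assays of the study were not analysed here.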

Additional observations from a re-analysis of the deposited data

How the results depend on the processing

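No gene of the 9 passed as higher under any alternative tried, and the median log2 fold change of the 9 stayed below 0, at -1.42 to -0.85 when 1 retina was left out. The number of the 9 that fell, 4 with all retinae, was 1 to 6 when 1 retina was left out, both with and without the minimum fold change, and 1 at an adjusted p of at most 0.01. It was 3 with robust dispersion, where Cx3cr1 did not pass, and 6 with DESeq2. With the replicate block it was 0 by either rule, and 82 of 16904 genes were lower, against 1556 without it. Across genes, samples with the same replicate number did not deviate together (correlations of 0.067, -0.049 and -0.20). Whether such samples shared a litter or batch is not stated in the sources used here and was not tested. Leaving out 1 retina left 404 to 1973 lower genes in all. P2ry12 changed sign under total count scaling (-0.12), which shifted the median of all genes from -0.01 to -0.17, and lay between -0.22 and 0.22 when 1 retina was left out. The causes of these changes were not tested. Groups of 3 retinae limit every exact test to p = 0.1, and low counts limit Siglech, Aif1, Tmem119 and P2ry12.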
